A study of Mus musculus with 10 samples.

Results

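Surface and cytokine receptors that mark blood stem and progenitor cells were followed in mouse fetal livers with and without Zfp36l2. The genes asked for were Kit, Flt3, Epor, Cd34, Slamf1, Cd48, Procr, Cd27 and Ly6a, and a member is any probe set whose annotation gives 1 of these symbols and no other. The rule found 11 of 45037 probe sets, which cover 8 of the 9 genes asked for and 8 of the 18193 genes on the array with a probe set of 1 symbol. In the annotation used here no probe set lists Ly6a (Sca-1), alone or beside other symbols, and Ly6a was not analysed here. Kit had 2 probe sets, Slamf1 had 3, and the other 6 genes had 1 each.

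RNA came from 10 livers taken on embryonic day 14.5, and each liver was hybridised to its own array. In 5 livers the genotype was wild type, and in the other 5 it was Zfp36l2 knockout, with all fetuses on a mixed b6 and 129 background. The labels do not give the sex or litter of a fetus or the part of the gene that the knockout removed. Whole liver was used without sorting, so blood cells of every stage, hepatoblasts, endothelium and stroma all contributed RNA.

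Blood formation in the fetus takes place chiefly in the liver, where most cells are maturing red cell precursors. Stem and early progenitor cells are a small minority. Kit and Flt3 are receptor tyrosine kinases for stem cell factor and FLT3 ligand, and Epor is the erythropoietin receptor, which signals through JAK2 and STAT5 and is needed for red cell precursors to survive. Cd34 and Procr are surface glycoproteins of stem and endothelial cells. Slamf1 (CD150) and Cd48 belong to the SLAM family of immunoglobulin-like receptors, and their opposite display is used to sort stem cells, which carry CD150 and lack CD48, from progenitors that carry CD48. Cd27 is a TNF receptor family member of progenitors and lymphocytes. Zfp36l2 encodes an RNA-binding protein that shortens the life of mRNAs with AU-rich elements, and mice without it are known to be short of blood stem and progenitor cells.

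The genotypes were fully separated after normalization for Epor and for the brightest Slamf1 probe set. Their promoter sequences are shown because only these members had genotypes that did not overlap. Each is the 250 bases before the transcription start in RefSeq on build GRCm38.p6, written 5′ to 3′ on the strand of the gene. Capitals mark a match to the GATA factor motif, searched on both strands as AGATAA or AGATAG or TGATAA or TGATAG. The Slamf1 stretch lies at chr1:171766882-171767131 on the plus strand and the Epor stretch at chr9:21963577-21963826 on the minus strand.
Slamf1: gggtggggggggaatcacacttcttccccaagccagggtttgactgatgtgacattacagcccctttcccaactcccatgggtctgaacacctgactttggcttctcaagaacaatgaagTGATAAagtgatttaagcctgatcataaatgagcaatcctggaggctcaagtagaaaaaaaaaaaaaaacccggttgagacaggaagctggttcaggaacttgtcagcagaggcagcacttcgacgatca
Epor: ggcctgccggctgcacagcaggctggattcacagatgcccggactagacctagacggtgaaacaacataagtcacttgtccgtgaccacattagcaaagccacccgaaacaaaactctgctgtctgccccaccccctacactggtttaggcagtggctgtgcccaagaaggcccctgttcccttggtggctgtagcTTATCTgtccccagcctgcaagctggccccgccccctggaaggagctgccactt
The Slamf1 match starts 130 bases before the transcription start, and the Epor match starts 54 bases before it. The Epor match is printed as TTATCT and reads AGATAA on the opposite strand. Such a match was held by 26.5% of the 32851 promoters in the table. Among the members without separated genotypes, Cd34 held 1 match and Cd27 held 2, and Cd48, Procr, Kit and Flt3 held 0. The KLF motif CCNCNCCC, searched on both strands, matched 4 times for Epor and 2 times for Slamf1, with some matches overlapping each other. It matched 3 times for Procr, 2 times for Kit, 1 time each for Flt3 and Cd27, and 0 times for Cd34 and Cd48. At least 1 match was held by 45.9% of promoters. The ETS motif CCGGAA had no match in these 250 bases for any of the 8 members with a promoter in the table. These matches describe the letters alone, and the deposited arrays hold no binding data.

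Array intensities are brightness values on a linear scale, and dim probe sets can be negative. Here they were quantile-normalized, values under 16 were set to 16 (the floor), and log2 was taken. Array medians ran from 19.47 to 25.01 before normalization, and the mean correlation of a liver with the others ran from 0.966 to 0.971. Zfp36l2 itself, the check of the labels, had a mean of 434 ± 91.0 in wild type livers and 102 ± 11.3 in knockouts (SD, n = 5), a log2 difference of -2.08 ± 0.13 (SE; limma adjusted p = 1.47e-06). Its wild type livers ran from 389 to 597 and its knockout livers from 82.3 to 109. With whole tissue, fewer cells of a type and less RNA per cell cannot be told apart.

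**Figure D1:**
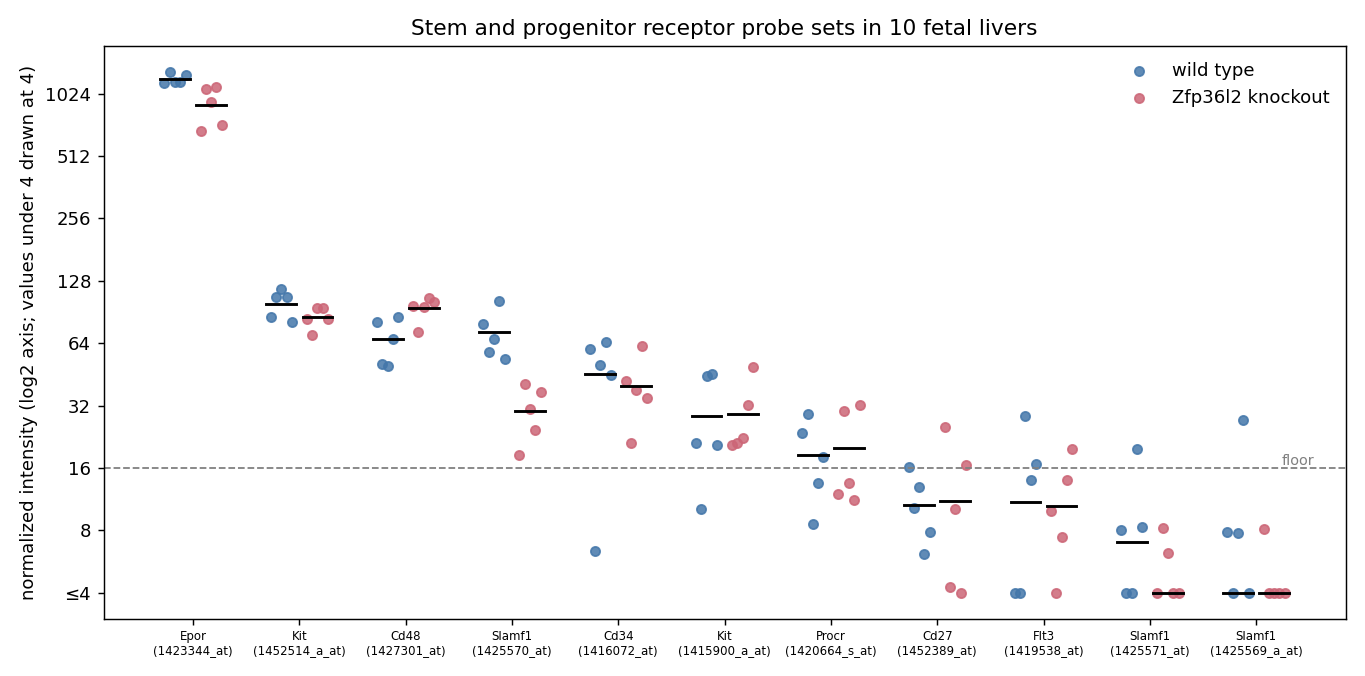
Normalized intensity of all 11 member probe sets (log2 axis, values under 4 drawn at 4) in 5 wild type and 5 Zfp36l2 knockout livers, 1 point per liver, with bars at the group means and the floor of 16 dashed. For Epor and the Slamf1 probe set 1425570_at every knockout liver lies below every wild type liver.

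Of the 11 member probe sets, 7 passed a filter that kept the brighter 60% of all probe sets by their mean over the 10 livers, and 4 did not. The 7 represent Kit with both probe sets, Epor, Cd34, Slamf1, Cd48 and Procr. Limma with Benjamini-Hochberg adjustment called none of the 7 at a threshold of 0.05, where 0.211% of all 27022 tested probe sets were called. An unadjusted p under 0.05 was found for 3 of them (Slamf1, Epor and Cd48), where 9.75% of all tested probe sets had one. In Slamf1 and Epor every knockout liver was below every wild type liver, and 1.17% of all tested probe sets were separated in this way.

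Slamf1 had the widest gap of the tested members. Probe set 1425570_at read 79.1, 57.8, 67.1, 102.8 and 53.8 in wild type replicates 1 to 5. It read 18.5, 40.5, 30.9, 24.3 and 37.1 in knockout replicates 1 to 5. The highest knockout liver, replicate 2, was below the lowest wild type liver, replicate 5, and this held after quantile normalization, after median scaling and in the intensities as deposited. The means were 72.1 ± 19.7 and 30.3 ± 9.04 (SD, n = 5). The log2 difference was -1.27 ± 0.28 (SE), with a 95% interval from -1.87 to -0.67, and on this fitted scale the knockout level was 41.5% of wild type. It missed the threshold across all probe sets (limma adjusted p = 0.0769), and exact permutation of the genotypes over the 10 livers, two-sided, gave p = 0.00794, the smallest that 5 against 5 can give. By unadjusted p this probe set ranked 132 of 27022. The lower knockout readings were close to the floor of 16, so the percentage depends on how dim values are treated. The log2 difference was -1.02 with a floor of 32 and -0.93 with 16 added before log2.

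The other Slamf1 probe sets were too dim to be read. Probe set 1425571_at had a mean of 7.02 ± 8.39 in wild type livers and -3.74 ± 10.1 in knockouts (SD, n = 5), and 1425569_a_at averaged 3.05 ± 18.8 and -4.77 ± 8.18. Each was above the floor in 1 wild type liver, replicate 4 in both cases, and in 0 knockout livers. The Slamf1 difference therefore rests on 1 probe set, and which exons the 3 probe sets cover was not analysed here.

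Cd48, the SLAM family gene used together with Slamf1 to sort stem cells, differed in the opposite direction. It read 81.4, 51.0, 49.7, 67.4 and 85.8 in wild type replicates 1 to 5. It read 96.4, 72.6, 96.1, 105.3 and 100.7 in knockout replicates 1 to 5. Knockout replicates 1, 3, 4 and 5 lay above every wild type liver, and knockout replicate 2 lay among them. The means were 67.1 ± 16.7 and 94.2 ± 12.7 (SD, n = 5), a log2 difference of 0.52 ± 0.21 (SE), with a 95% interval from 0.08 to 0.95. This missed the threshold (limma adjusted p = 0.413; two-sided exact permutation p = 0.0317). Taken within each liver, log2 Slamf1 minus log2 Cd48 ran from -0.675 to 0.609 in wild type and from -2.38 to -0.84 in knockout livers. This difference between a pair of probe sets was formed after the values were seen, its zero has no meaning, and it is given without a test.

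Epor, the erythropoietin receptor, read 1151, 1305, 1170, 1165 and 1258 in wild type replicates 1 to 5. It read 677, 1085, 939, 1109 and 722 in knockout replicates 1 to 5. Wild type livers were close together, while knockout livers spread over a wide range: replicates 1 and 5 were low and replicates 2 and 4 came near the wild type livers. The means were 1210 ± 67.9 and 906 ± 200.2 (SD, n = 5), a log2 difference of -0.44 ± 0.12 (SE), with a 95% interval from -0.70 to -0.19. It missed the threshold (limma adjusted p = 0.151; two-sided exact permutation p = 0.00794). Separation of the genotypes depended on the scaling. In the intensities as deposited the lowest wild type liver was at 1079 and the highest knockout liver at 1120, and 3 of 5 knockout livers were below every wild type liver. With median scaling these values were 1107 and 1160, and 4 of 5 knockout livers were below every wild type liver.

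Kit, the stem cell factor receptor of stem cells, progenitors and mast cells, differed little. Probe set 1452514_a_at read 86.0, 107.2, 116.5, 106.9 and 80.9 in wild type replicates 1 to 5. It read 83.5, 70.4, 94.6, 94.2 and 83.4 in knockout replicates 1 to 5. The groups overlapped, with knockout replicate 2 alone below every wild type liver. The means were 99.5 ± 15.3 and 85.2 ± 9.93 (SD, n = 5), a log2 difference of -0.22 ± 0.17 (SE; limma adjusted p = 0.735). The 95% interval from -0.57 to 0.14 includes both no difference and a lower level in the knockout. The dimmer Kit probe set 1415900_a_at averaged 28.5 ± 15.8 and 29.1 ± 12.2, with a log2 difference of 0.02 and a 95% interval from -0.74 to 0.78 (adjusted p = 0.992).

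Cd34, a sialomucin of stem cells and vessels, read 59.9, 6.32, 50.4, 65.0 and 44.8 in wild type replicates 1 to 5. It read 42.2, 21.1, 38.2, 61.8 and 35.0 in knockout replicates 1 to 5. The ranges overlapped almost fully, and replicate 2 was the lowest liver of both genotypes. The log2 difference was -0.19 ± 0.38 (SE; limma adjusted p = 0.927), with a 95% interval from -0.9997 to 0.62. Without wild type replicate 2, which was under the floor, it was -0.54, and without knockout replicate 2 it was 0.02. Procr, the endothelial protein C receptor, was above the floor in 5 of 10 livers, 3 wild type and 2 knockout. It read 8.56 to 29.0 in wild type and 11.2 to 32.3 in knockout livers, and its fitted log2 difference of 0.07 ± 0.29 (adjusted p = 0.968) rests partly on values set to the floor.

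Flt3, whose ligand drives early lymphoid and dendritic progenitors, was above the floor in 2 wild type livers and 1 knockout liver. It ran from -7.31 to 28.4 in wild type and from 1.17 to 19.7 in knockout livers. Cd27 was above the floor in 1 wild type liver and 2 knockout livers, with ranges of 6.13 to 16.1 and -0.66 to 25.2. Both overlapped between the genotypes and failed the filter, and so no difference can be read for them at this signal.

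**Figure D2:**
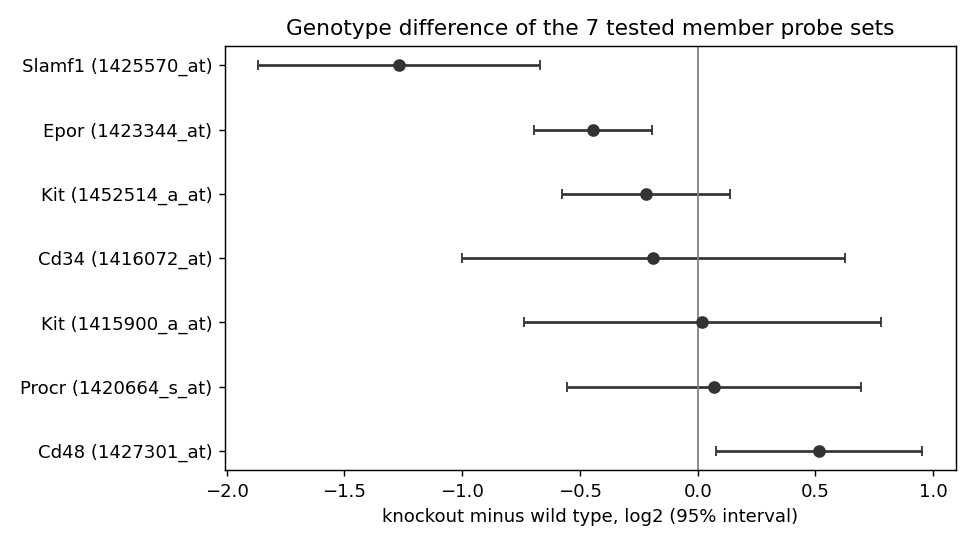
Log2 difference, knockout minus wild type, of the 7 tested member probe sets with 95% intervals from limma. The intervals of Slamf1, Epor and Cd48 lie off 0, and none of the 7 passed the adjusted threshold.

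Ligands and partners of these receptors were taken from a list of 8 genes, of which 5 had a probe set and 3 were tested, with 0 called. Kitl, which encodes stem cell factor and is made by stromal cells, had a mean of 319 ± 49.1 in wild type livers and 349 ± 65.4 in knockouts (SD, n = 5; limma adjusted p = 0.845). Proc, the hepatocyte protein C precursor that binds Procr, averaged 707 ± 52.9 and 716 ± 71.03 (adjusted p = 0.971). Cd2, a ligand of CD48, averaged 13.8 and 7.14 (adjusted p = 0.943). Cd244a, another CD48 ligand, averaged 6.32 and 8.83, and Cd70, the ligand of CD27, averaged below 0 in both genotypes. Flt3l, Epo and Thpo had no value here.

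Signalling genes behind Kit, Flt3 and Epor were tested for 24 of 26 list members, and 0 were called, where 0.328% of all 12821 tested genes were called. An unadjusted p under 0.05 was found for 4 of the 24, where 11.4% of all tested genes had one, and the median log2 difference was 0.01 against 0.00 over all tested genes. Ptpn11, the SHP2 phosphatase, was nearest to the threshold, at 946 ± 101.3 in wild type livers and 738 ± 27.2 in knockouts (SD, n = 5; log2 -0.35 ± 0.07, limma adjusted p = 0.0584), and its genotypes did not overlap. Jak2, the kinase bound to the erythropoietin receptor, was named after its values were seen. It averaged 456 ± 39.0 and 351 ± 20.7, a log2 difference of -0.37 ± 0.08 (SE) short of the threshold (limma adjusted p = 0.0715), and its genotypes did not overlap either. Inhibitors of cytokine receptor signalling in the list, also named after their values were seen, lay on both sides of 0. Socs3 and Cbl had log2 differences of 0.76 ± 0.20 and 0.29 ± 0.11 (limma adjusted p = 0.163 and 0.377). Log2 differences were 0.33 for Cish, -0.27 for Socs2, -0.06 for Sh2b3, -0.03 for Ptpn6 and 0.01 for Inpp5d (limma adjusted p from 0.752 to 0.983).

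Other surface genes of stem and progenitor cells were tested for 22 of 26 list members, with 0 called and a median of 0.04. An unadjusted p under 0.05 was found for 10 of the 22, against 11.4% of all tested genes, and these genes, named after their values were seen, lay on both sides of 0. Higher means in the knockout were found for the cytokine receptor subunit genes Csf2rb, Il6st and Csf1r, with log2 differences of 1.03, 0.74 and 0.44, for the chemokine receptor gene Cxcr4 at 0.90, and for Fcgr3, Ly6e and Cd44 at 0.56, 0.37 and 0.41. Lower means were found for the integrin genes Itga6 and Itga4 at -0.49 and -0.23 and for Eng, a TGF-beta co-receptor, at -0.36. Cd44, a hyaluronan receptor of leukocytes and progenitors, averaged 281 ± 28.2 and 372 ± 18.8 (SD, n = 5; log2 0.41 ± 0.09, limma adjusted p = 0.0675), with no overlap of the genotypes. Cd47, which inhibits uptake by macrophages and had the highest mean of the list, averaged 2844 ± 255.9 and 2654 ± 160.0 (adjusted p = 0.692). The other SLAM family genes and adaptors were mostly dim: 3 of 9 were tested and 0 called. Cd84 averaged 64.8 and 69.0 (adjusted p = 0.915) and Slamf9 28.9 and 24.8 (adjusted p = 0.909). Stem and progenitor transcription factors were tested for 19 of 20 genes, with 0 called and a median of -0.07. An unadjusted p under 0.05 was found for 4 of the 19, against 11.4% of all tested genes, and these lay on both sides of 0. Lmo2, a bridging protein of the TAL1 complex, averaged 2783 ± 105.8 and 2448 ± 107.4 (log2 -0.19, adjusted p = 0.171). Gfi1b, a transcriptional repressor that acts in red cell and megakaryocyte precursors, averaged 608 ± 49.2 and 492 ± 36.5 (log2 -0.31 ± 0.08, adjusted p = 0.118). In Lmo2 and Gfi1b the genotypes did not overlap after quantile normalization. Overlap under other scalings was checked for the members only, and this limit holds for Ptpn11, Jak2 and Cd44 too. Spi1 and Bmi1, named after their values were seen, were higher in the knockout. Their log2 differences were 0.63 and 0.31 (limma adjusted p = 0.385 and 0.297).

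**Figure D3:**
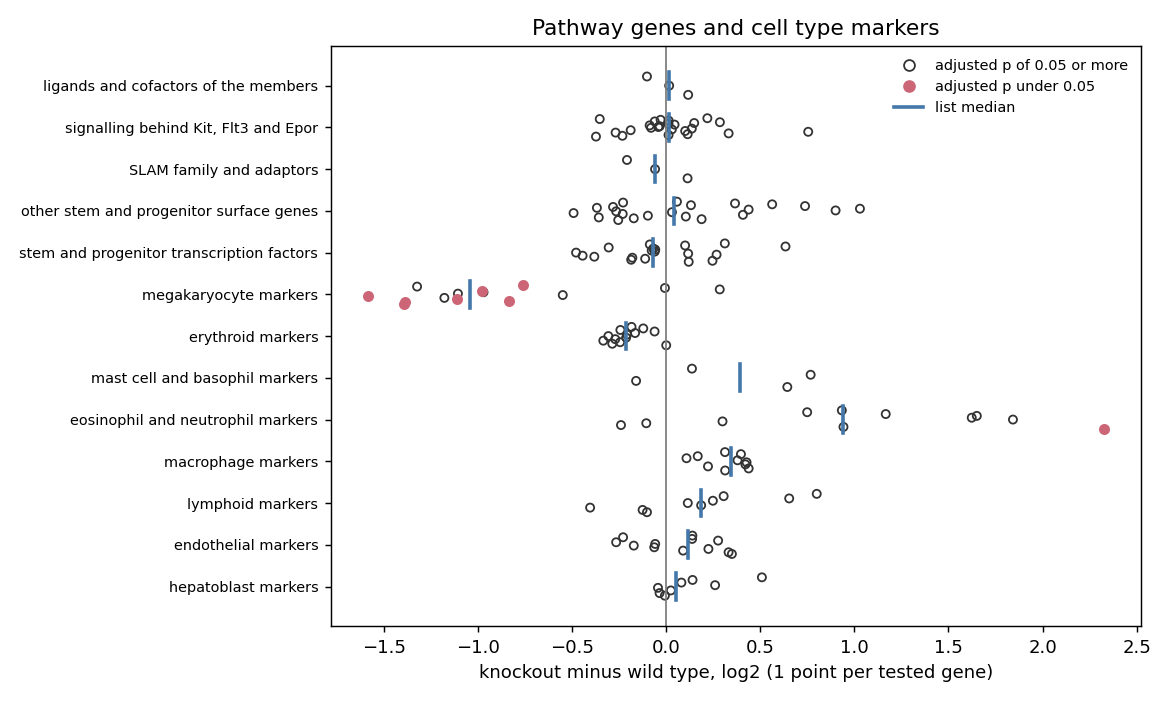
Log2 difference, knockout minus wild type, of each tested gene in 13 lists (1 point per gene, filled where the adjusted p was under 0.05), with list medians as bars. All 7 called megakaryocyte markers lie below 0, while the lists of receptor ligands, signalling genes and progenitor genes centre near 0.

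Several receptors are shared with other cells of the liver, so the marker lists are given beside them. Megakaryocytes, which also carry CD150, lay in the same direction as Slamf1. Of 14 tested megakaryocyte markers 7 were called lower, where 0.172% of all tested genes were, and the median was -1.04. The chemokine genes Pf4 and Ppbp and the platelet adhesion receptor genes Gp5 and Itgb3 had log2 differences of -1.395, -1.385, -1.585 and -1.11 (limma adjusted p = 0.000107, 0.000146, 0.0240 and 0.0378). Differences were negative for 13 of the 14 and positive for 1, Tubb1, at 0.29 (limma adjusted p = 0.869). Tubb1 is part of the summed level and of the marker mean given below. Over all 13 lists 8 genes were called, and this count was 3 without any 1 of wild type replicates 1, 3 and 4 or knockout replicates 4 and 5, 4 without knockout replicate 1, 5 without knockout replicate 2 and 18 without wild type replicate 5. The summed level of the 14 genes ran from 4728 to 8210 in wild type and from 3043 to 4330 in knockout livers, and 0 of them averaged under the floor. Taken against the mean of the 11 megakaryocyte markers above the floor in every liver, Slamf1 differed by -0.27 with overlapping livers (two-sided exact permutation p = 0.373). Taken against the 13 erythroid markers it differed by -1.07, with every knockout liver below every wild type liver (exact permutation p = 0.00794). The part of megakaryocytes in the Slamf1 difference was not tested.

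Erythroid markers are the reference for Epor. Of 13 tested, 12 had negative differences, where 6404 of all 12821 tested genes did, and the median was -0.21. None was called, while 9 of the 13 had an unadjusted p under 0.05 against 11.4% of all tested genes. Ank1, an anchor of the red cell membrane skeleton, had a log2 difference of -0.29 ± 0.06 (SE; limma adjusted p = 0.0640), and Slc4a1, the band 3 anion exchanger, averaged 7929 and 7896. The summed level ran from 37513 to 48436 in wild type and from 36401 to 41074 in knockout livers, and 0 of the 13 averaged under the floor. Against the mean of these 13 markers, Epor differed by -0.24 with overlapping livers (two-sided exact permutation p = 0.135). Knockout replicates 1 and 5 stood lowest on this scale at -1.66 and -1.67, and knockout replicates 2 and 4 lay within the wild type range of -1.23 to -1.02. Kit taken against the same markers differed by -0.01 (exact permutation p = 0.881).

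Macrophage markers, from cells that also carry CD48, had differences in the direction of Cd48. All 10 tested were positive, where 6417 of all 12821 tested genes were, and the median was 0.35. Of the 10, 0 were called, and 4 had an unadjusted p under 0.05, against 11.4% of all tested genes. Csf1r is counted in this list and among the other surface genes. On the array 1 of 11, Cd163, averaged under the floor. C1qc, a complement subunit, had a log2 difference of 0.38 ± 0.10 (limma adjusted p = 0.138), and Vcam1 one of 0.11 (adjusted p = 0.758). The summed level ran from 3085 to 4941 in wild type and from 4165 to 4971 in knockout livers. Against these markers Cd48 differed by 0.20 with overlapping livers (two-sided exact permutation p = 0.357), while against erythroid markers it differed by 0.72 (exact permutation p = 0.0159). The macrophage mean itself differed by 0.32 and the erythroid mean by -0.20. Eosinophils carry CD48 as well, and of 11 tested eosinophil and neutrophil markers, which are mostly neutrophil genes, 9 were positive and 2 negative with a median of 0.94, and 1 was called, where 0.328% of all tested genes were. Epx, the eosinophil peroxidase, averaged 32.2 ± 24.8 and 158 ± 65.2 (limma adjusted p = 0.0285), with 2 livers at the floor. Prg2, the other eosinophil gene of the list, had a log2 difference of 0.94 (limma adjusted p = 0.106). The neutrophil genes Mpo and Elane had -0.24 and -0.11 (limma adjusted p = 0.817 and 0.947). All other neutrophil genes of the list were positive. Ltf, Ngp, Lcn2 and Camp had 1.84, 1.65, 1.62 and 1.17 (limma adjusted p from 0.0972 to 0.304). S100a9, S100a8 and Prtn3 had 0.93, 0.75 and 0.30 (limma adjusted p from 0.337 to 0.7485). An unadjusted p under 0.05 was found for 8 of the 11, against 11.4% of all tested genes. Prg2 and the neutrophil genes were named after their values were seen. The summed level of the 11 genes ran from 6432 to 28018 in wild type and from 14433 to 27222 in knockout livers. The part of these cells in the Cd48 difference was not tested.

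The remaining lists bear on Kit, Cd34, Procr and Cd27. Mast cell and basophil markers were mostly dim. Of 10, 6 averaged under the floor over all livers, among them the protease genes Cpa3, Mcpt4 and Cma1 and the receptor gene Fcer1a. Over all probe sets 43.1% of values were at or under the floor. Of the 4 tested 0 were called, 3 were positive and 1 negative, and the median was 0.39. Hdc, Ms4a2 and Mcpt8 had log2 differences of 0.14, 0.77 and 0.64 (limma adjusted p = 0.951, 0.509 and 0.718). Tpsb2 had one of -0.16 (limma adjusted p = 0.918). The summed level ran from 116 to 203 in wild type and from 72.5 to 226 in knockout livers. T cell receptor genes Cd3e and Cd3g averaged under the floor, as did 5 of 12 lymphoid markers in all. Of 9 tested lymphoid markers 0 were called, 6 were positive and 3 negative, and the median was 0.19. Igll1 and Rag1 had log2 differences of 0.31 and 0.80 (limma adjusted p = 0.743 and 0.414). Lymphoid levels summed to between 254 and 469 in wild type and between 267 and 609 in knockout livers. Of 12 endothelial markers 0 were called, with a median of 0.11 and summed levels of 1329 to 1426 and 1342 to 1754. Lyve1 and Stab2 had log2 differences of 0.14 and 0.28 (adjusted p = 0.683 and 0.337), and Cd34 taken against the endothelial markers above the floor differed by -0.22 (two-sided exact permutation p = 0.611). Hepatoblast markers, which check the tissue label, were abundant, with Afp at 16360 in wild type and 16290 in knockout livers, 0 of 8 called, and Fgb at a log2 difference of 0.51 (adjusted p = 0.198). Quantile normalization sets each value by its rank, and Afp read 16540 in several livers of both genotypes. Its near-equal means are therefore not a measured lack of difference.

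**Figure D4:**
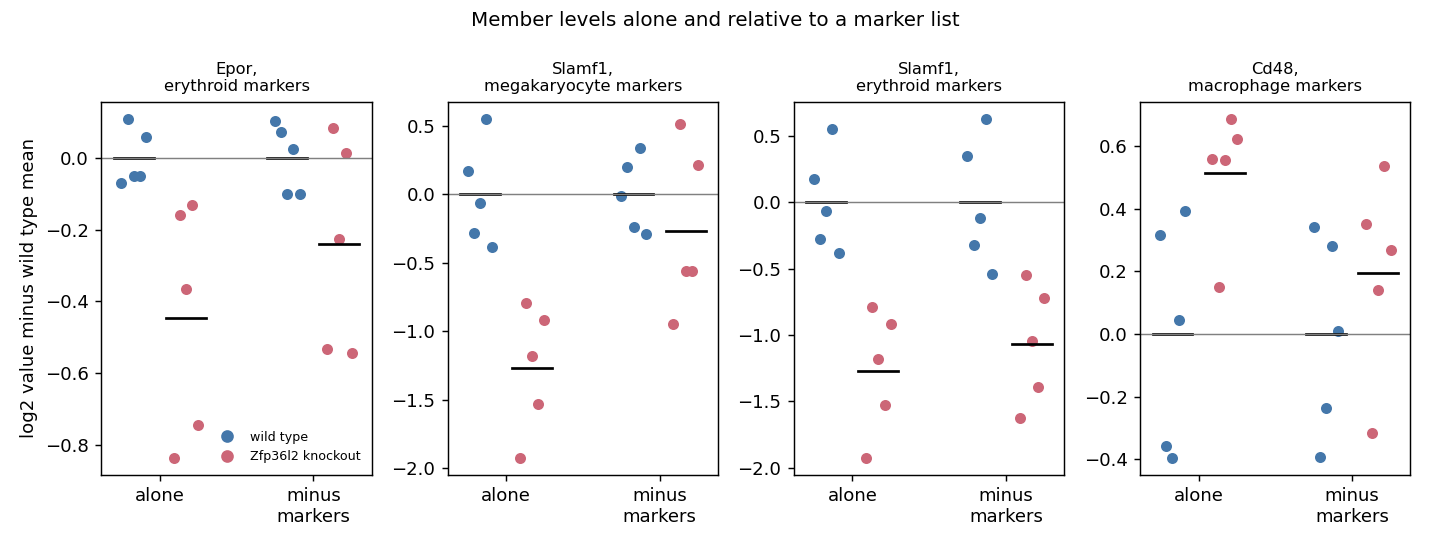
Log2 level of Epor, Slamf1 and Cd48 in each liver, minus the wild type mean, alone and after subtracting the mean of a marker list (1 point per liver, bars at group means, panels with their own vertical scales). The Slamf1 group means differ by -1.27 alone, by -1.07 against erythroid markers and by -0.27 against megakaryocyte markers.

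For the 4 members with a probe set above the floor in all 10 livers, the genes with the closest pattern over those livers were found among 9301 other genes, by Pearson correlation of log2 values and as a description only. Slamf1 was closest to Rpl22l1 (r = 0.947), a paralog of ribosomal protein L22, and Pak1ip1 (r = 0.938). Epor was closest to Tti1 (r = 0.935) and the protease gene Capn5 (r = 0.934). Kit was closest to the centrosomal gene Cep57l1 (r = 0.938) and Haus1 (r = 0.905), and Cd48 to Fbxl5 (r = 0.918), an iron-sensing ubiquitin ligase subunit, and the tetraspanin Tspan31 (r = 0.908). None of these 8 genes was called between the genotypes. The points share the arrays and the genotypes, and with this many genes compared over 10 livers such values are the extremes of a long list.

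Single livers moved the member values without changing a call. Leaving out each liver in turn, the Slamf1 difference ran from -1.39 to -1.11 (limma adjusted p = 0.0582 to 0.203), that of Epor from -0.52 to -0.35 (0.101 to 0.304) and that of Cd48 from 0.42 to 0.61 (0.283 to 0.622). The Cd34 difference ran from -0.54 to 0.02 and changed sign. The Epor difference was smallest without knockout replicate 1. The unadjusted p of Cd48 rose to between 0.0507 and 0.0658 (limma) on leaving out any 1 of wild type replicates 2 and 3 and knockout replicates 4 and 5.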

How the data were processed

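The authors deposited 1 linear intensity for each probe set and array. Which software and scaling made these values is not given in the sources used here. Per the labels' protocols, a one-cycle Affymetrix kit turned total RNA into biotin-labelled cRNA. The platform annotation gave 1 gene symbol for 34945 of 45037 probe sets, several for 932 and none for 9160. Genotype and replicate came from the sample titles.

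The members and lists were chosen with earlier results of these data known. Intensities were quantile-normalized, values under 16 were set to 16, and log2 was taken. A floor at the lowest positive value, 0.000978, stretches dim values on the log2 scale and was kept as an alternative. A probe set was tested if its mean log2 value reached the 40th percentile, which left 27022. The model in limma 3.58.1 (R 4.3.3) held genotype alone, with eBayes and a variance trend. P-values were two-sided and Benjamini-Hochberg adjusted across the whole tested table, at a threshold of 0.05. For genes with several probe sets, lists used the one of highest mean. Named genes were all members and ligands, up to 4 called genes of a list or else its highest mean and smallest p, and the 2 closest patterns of a member. Other genes, among them the markers under the floor, were named after their values were seen. Values relative to marker lists were added after the data were seen. Alternatives changed the floor, offset, scaling, filter, trend and weights, added the replicate number, or left out each liver. The fit was tested on simulated data. The number of livers limits the precision.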

Additional observations from a re-analysis of the deposited data

Results flagged for a closer look

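Within 84 sets of 5 livers, Dixon's ratio marked 6 in which 1 liver stood away from the rest. By chance alone about 1 in 20 sets is marked, which is 4.2 of the 84. Among the receptors, Cd34 was low in wild type replicate 2 (log2 4, at the floor, nearest 5.49) and Cd48 was low in knockout replicate 2 (6.18, nearest 6.59). Without knockout replicate 2 the Cd48 difference was 0.61. Kitl was high in wild type replicate 1 (8.66, nearest 8.31) and Lyve1 low in knockout replicate 5 (8.15, nearest 8.45). Zfp36l2 was high in wild type replicate 3 (9.22, nearest 8.63) and low in knockout replicate 2 (6.36, nearest 6.68).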

How the results depend on the processing

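No member probe set was called by limma under any of the 20 alternatives. Slamf1, Epor, Cd48 and the brighter Kit probe set kept their direction in all of them. Over these, the Slamf1 difference ran from -1.39 to -0.93 (limma adjusted p = 0.0582 to 0.213), Epor from -0.52 to -0.35 (0.0689 to 0.444) and Cd48 from 0.42 to 0.61 (0.270 to 0.622). Directions turned for the dimmer Kit probe set, Cd34 and Procr. The dimmer Kit probe set gave -0.07141 with a floor of 32, -0.032 as deposited and -0.1854 to 0.2048 without single livers. Cd34 gave 0.08027 with a floor at the lowest positive value and -0.5413 (without wild type replicate 2) to 0.01743 (without knockout replicate 2) without single livers. Procr gave -0.09622 to 0.2053 without single livers. Over all probe sets the 57 calls became 11 with the floor at the lowest positive value, 12 with a floor of 32, 94 with median scaling, 6 without the filter, 9 without the variance trend, 103 with array weights and 13 to 168 without single livers (fewest when wild type replicate 4 was left out, most when wild type replicate 5 was). Over the 13 lists the 8 calls became 3 with the floor at the lowest positive value and 3 to 18 without single livers. The cause was not tested. With the replicate number as a block 179 probe sets were called and 0 members. The deviations of same-numbered livers correlated at 0.0285 to 0.13, above 0.1 in 1 of 5 pairs, and 3 of 5 correlated best with their own number. These values do not settle whether the numbers pair the livers. Signal over background limits Flt3, Cd27, Procr and the 2 dim Slamf1 probe sets.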
